A study of Mus musculus with 15 samples.

Results

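Olfactory bulbs of mice without the receptor CRHR1 were compared with bulbs of control mice that carry Cre. The knockout group held the 5 arrays whose titles name a CRHR1-/- knockout with a flex GFP virus, and the Cre GFP group the 5 arrays whose titles name the CRHR-Cre line with the same virus. These 10 arrays were chosen by their titles from the 15 of the series. The other 5 arrays, from Cre mice given a virus that codes for a constitutively active CRHR1, entered the fit for its estimate of the spread and are given here as levels only. Each array measured the total RNA of the bulb of 1 male mouse aged 6 to 8 weeks, 2 weeks after an injection of 500 nL of virus. The viral cargo is inverted and is turned on only where Cre is present. The labels name Cre for the control mice and not for the knockout mice, so that Cre, and with it the making of viral GFP, may differ between the groups. The control mice make Cre in cells with CRHR1, which the labels describe as granule cells. The knockout mice are labelled as strain 129S4/SvJae and the control mice as C57Bl/6. In every result given here, the strain and the knockout cannot be told apart. The labels describe the receptor as removed from the whole genome, granule cells included, and rank the knockout as the group of low CRH signalling and the Cre GFP group as a stand-in for wild type.

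Corticotropin-releasing hormone (CRH) is the peptide with which the hypothalamus starts the stress response, but it also acts locally in other brain regions. CRHR1 is a G protein-coupled receptor that raises cyclic AMP when CRH binds. In the olfactory bulb, CRH comes from local interneurons, and CRHR1 is found on granule cells, the inhibitory neurons that make synapses with mitral and tufted cells and are replaced throughout adult life.

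A level is the log2 signal of a gene's probe minus the 75th percentile of its array, so that a difference of 1 is a factor of 2. A change is the mean level of the knockout arrays minus that of the Cre GFP arrays, given with its standard error (SE). Whether each probe matches the sequence of both strains was not tested, so that a rise or fall is one of probe signal. A gene was called where limma's Benjamini-Hochberg adjusted p, over all 27334 genes tested, lay under 0.05. The knockout arrays all lay on slide 1, together with Cre GFP arrays 1 to 3, while Cre GFP arrays 4 and 5 lay on slide 2. With slide as a block in the fit, the change is that among the arrays of slide 1, since slide 2 held no knockout array. Over the 15 arrays, the 75th percentile of signal ran from 664 to 1171. Knockout array 2 had the lowest mean correlation with its group (0.976) and the most probes well above background (67.8%), and knockout array 5 had the largest residual spread (0.430 against 0.242 to 0.348 on the others). The markers of bulb interneurons were well expressed in both groups: the vesicular GABA transporter gene Slc32a1 had a mean level of 7.28 in the knockout and 7.33 in the Cre GFP group, and Gad1, which makes GABA, of 5.86 and 5.99. The bulb was measured whole, so that fewer cells of a type and less RNA per cell cannot be told apart. The p-values measure the spread between these mice, and precision is limited by the number of arrays.

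The probes for the transcripts on which the next results turn are given here by their first 30 bases, 5′ to 3′, so that a reader can place what was measured. Coordinates are those of the mouse build mm9 and cover the whole probe of 60 bases, per the file headers. The Crhr1 probes lie at chr11:104036691-104036750 and chr11:104036182-104036241, and the probe of the transcript TC1731267 at chr11:103888595-103888654. The probe A_55_P2137023 lies at chr7:132246864-132246923, that of Pttg1 at chr11:43233801-43233860 and that of Gbp2b at chr3:142281466-142281525.
Crhr1, probe used: cagcgacaggtggctcctgggacaactaac
Crhr1, second probe: atcatggaaaactcccttctgagactgtaa
TC1731267: taggcaggaactgtcaactcttagcttatc
A_55_P2137023: ctcatgatgtccaacaccaccatagcctca
Pttg1: ccgcctgtttgttacgatgcagatatttaa
Gbp2b: gttgggatttgtttttacaacacagtgata

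Crhr1 RNA was lower in the knockout bulbs and still far above background. Its levels were 3.32, 3.13, 3.00, 3.14 and 3.23 on knockout arrays 1 to 5 and 3.86, 3.79, 3.52, 3.52 and 3.48 on Cre GFP arrays 1 to 5. The groups did not overlap, and all 5 arrays of the active CRHR1 group (3.57 to 3.83) also lay above the knockout arrays. The change was -0.47 ± 0.09 (SE; adjusted p = 0.0139), a level 1.39-fold lower. The second probe gave -0.47 ± 0.10. The call was kept with slide as a block (adjusted p = 0.0151) and lost among the arrays of slide 1 alone (0.0940) and without knockout arrays 2 and 5 (0.0615). The position of both probes against the deletion was not determined, so that the remaining signal does not check the label.

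Crhbp, whose protein binds CRH outside cells and keeps it from its receptor, fell as well. The knockout arrays had levels of 1.27, 0.96, 0.96, 0.95 and 1.42, and the Cre GFP arrays 1.49, 1.46, 2.12, 2.10 and 1.91. The Cre GFP arrays fell into a lower pair, arrays 1 and 2, and 3 higher ones, and arrays of both kinds lay on slide 1. The change was -0.70 ± 0.14 (adjusted p = 0.0152), and the call did not hold with slide as a block (-0.58, adjusted p = 0.0814) or with arrays centred on their median (adjusted p = 0.0574).

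Crh, the ligand, had levels of 1.82, 1.74, 1.61, 1.51 and 2.25 on the knockout arrays and 2.02, 2.03, 2.68, 2.57 and 2.87 on the Cre GFP arrays. Knockout array 5 lay among the Cre GFP arrays, Cre GFP arrays 1 and 2 were again the lowest of their group, and the difference of -0.65 ± 0.18 missed the threshold (adjusted p = 0.0624). In the active CRHR1 group the mean level of Crh was 1.58. Crhr2, the gene of the other CRH receptor, differed by 0.01 ± 0.17 (adjusted p = 0.986), with Cre GFP arrays 1 and 2 at -0.91 and -1.11, above all 5 knockout arrays, and arrays 3 to 5 between -1.78 and -1.68, below them. Of the 7 genes of the CRH family, the 3 urocortin genes did not pass the filter on dim probes. Of the 4 tested 2 were called, both lower, against 3.39% of all genes called in either direction.

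**Figure D1:**
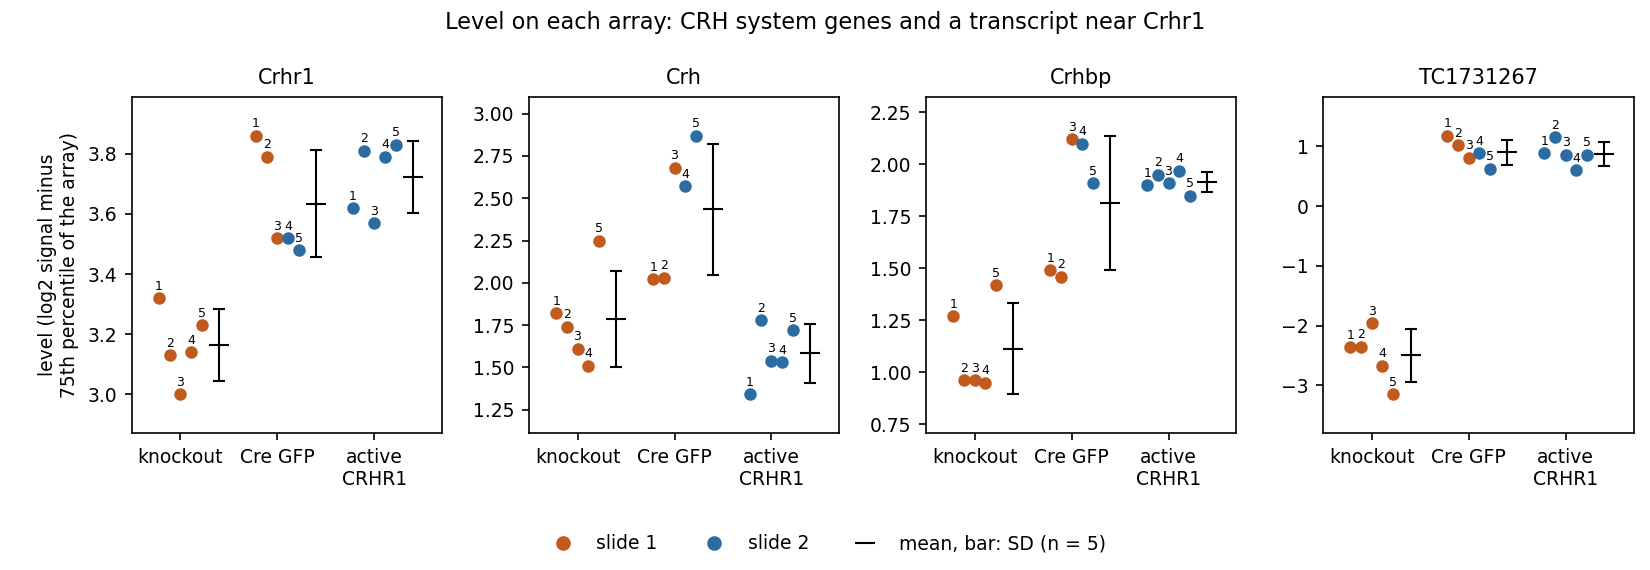
Level (log2 signal minus the 75th percentile of the array) of Crhr1, Crh, Crhbp and TC1731267 on each of the 15 arrays, numbered by replicate and coloured by slide; black marks are the group mean and bars the SD over 5 arrays. The knockout arrays lie below every Cre GFP array for Crhr1, Crhbp and TC1731267, and Cre GFP arrays 1 and 2 are the lowest of their group for Crh and Crhbp.

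The smallest p of all genes tested belonged to a transcript beside Crhr1. TC1731267 is a transcript without a gene name, whose probe lies 148 kb before that of Crhr1 on chromosome 11. It had levels of -2.36, -2.35, -1.96, -2.67 and -3.15 on the knockout arrays and of 1.18, 1.02, 0.81, 0.89 and 0.63 on the Cre GFP arrays. The groups lay far apart, and the active CRHR1 group had a mean level of 0.87, like the Cre GFP group. The change was -3.40 ± 0.18 (adjusted p = 7.59e-07), and it kept its call in every alternative tried.

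Most genes around Crhr1 did not follow it. Of 30 genes tested within 1 Mb 3 were called (10.0%): Crhr1, TC1731267 and Itgb3, the beta-3 integrin subunit of platelets and other cells, which fell by 0.72 ± 0.13 (adjusted p = 0.0117). Of the genes within 1 Mb that were not called, Gm10844 had the lowest change (-1.33, adjusted p = 0.0769), and all others lay between -0.42 and 0.21. Within 5 Mb, 12 of 241 genes were called (4.98%), 7 higher and 5 lower, against 54 of 1649 on the rest of the chromosome (3.27%) and 3.39% of all genes. The share was about as high farther out, with 12 of 242 genes at 5 to 10 Mb (4.96%) and 16 of 354 at 10 to 20 Mb (4.52%). Whether these shares differ was not tested.

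The changes within 5 Mb ran both ways. C1ql1, a secreted organiser of synapses that oligodendrocyte precursors also make, rose by 0.56 ± 0.11, the small GTPase gene Rnd2, which guides neuronal migration, by 0.42 ± 0.09, and the B cell receptor subunit gene Cd79b by 0.95 ± 0.19. Meox1, a homeobox gene, rose by 0.84 ± 0.21, and Higd1b, which marks pericytes, by 0.43 ± 0.10. Zfp385c, a zinc finger gene, fell by 0.50 ± 0.08. With slide as a block Cd79b and Higd1b lost their calls (adjusted p = 0.0709 and 0.0972), and in single omissions Rnd2 in 5 of 15, Meox1 in 10 and Higd1b in 3 (adjusted p up to 0.109). Centred on the median of the array, C1ql1, Zfp385c, Rnd2, Meox1 and Higd1b were not called (adjusted p from 0.0574 to 0.202).

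**Figure D2:**
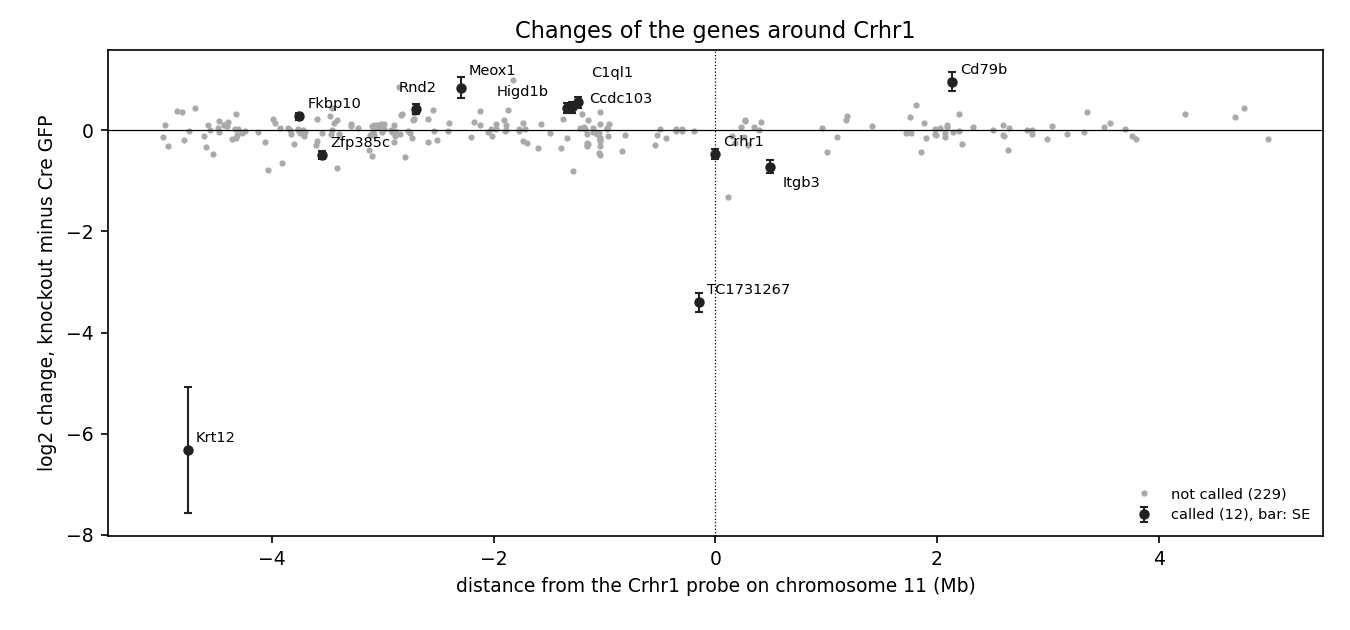
Change (log2, knockout minus Cre GFP) of the 241 genes whose probes start within 5 Mb of the Crhr1 probe, against the distance in Mb. The 12 called genes are named and have SE bars; TC1731267, at -3.40, stands near Crhr1, as does the uncalled Gm10844 at -1.33, and Krt12 at the left edge had the largest change.

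Over the whole array 927 of 27334 genes were called (3.39%), 535 higher in the knockout (1.96%) and 392 lower (1.43%). Most changes were small: the median size among called genes was 0.51, and 73 higher and 76 lower genes differed by at least 2-fold. Large changes belonged mostly to weakly expressed genes. With genes divided by level into 4 bins of equal size, 131 were called in the lowest bin (1.92%), 68 of them by at least 2-fold, and 188 in the highest bin (2.75%), 7 of them by at least 2-fold. The bin below the highest held the largest share of calls (4.90%).

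The arrays of the groups did not overlap for 782 of the called genes (84.4%), against 5.54% of all genes. Called genes were chosen by the difference between these same arrays, so that this share is no further support. For 494 called genes the knockout arrays also lay apart from the active CRHR1 arrays, which are C57Bl/6 too. Among all 27334 genes tested this held for 735. With slide as a block 383 genes were called (1.40%), of which 341 had been called without it, and all 927 kept their sign. Both changes rest on the arrays of slide 1, so that a kept sign is no separate support. The split between higher and lower depended on the scaling and on 2 arrays. Higher calls made up 57.7% here, 31.2% of 336 calls after centring each array on its median, 33.6% of 453 calls in the authors' scaled values and 42.3% of 345 calls without knockout arrays 2 and 5. Median centring moved the change of the median gene by -0.06.

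**Figure D3:**
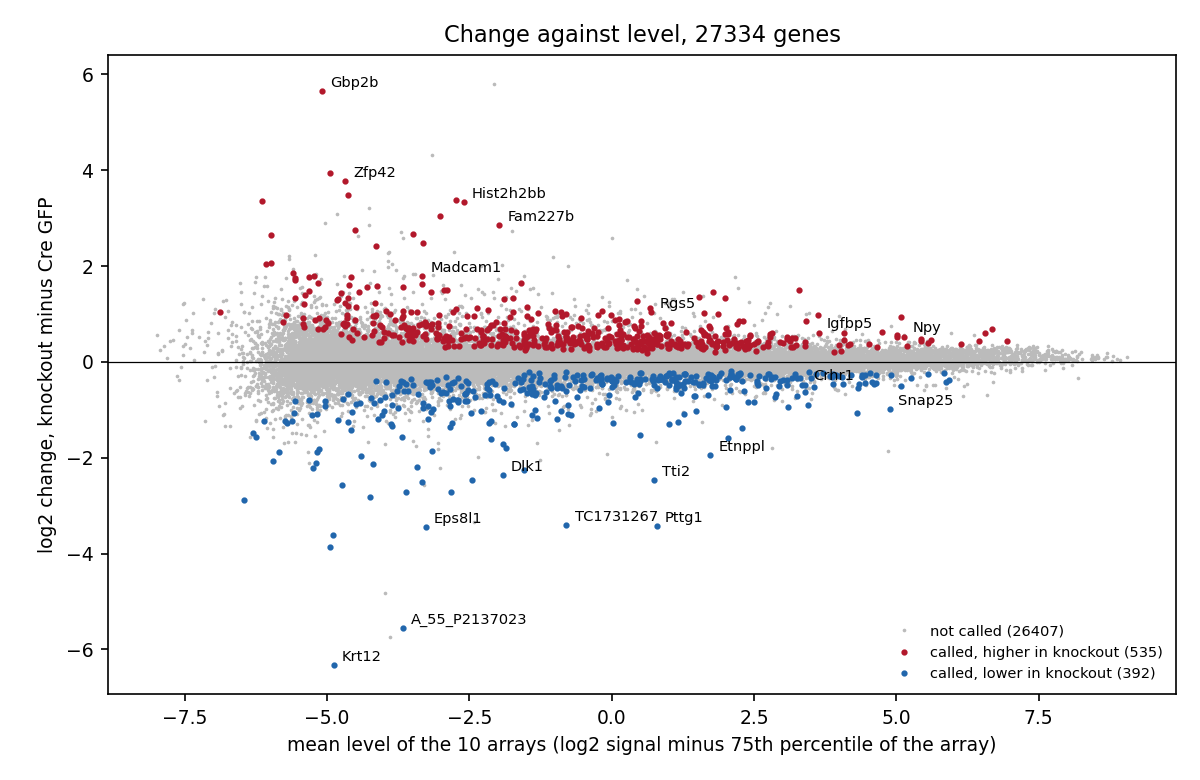
Change (log2, knockout minus Cre GFP) of 27334 genes against the mean level of the 10 arrays (log2 signal minus the 75th percentile of the array); red and blue points are the 535 higher and 392 lower called genes. The largest changes, such as those of Gbp2b and Krt12, lie at low mean levels, and the called genes at high levels changed by less than 1 unit with few exceptions.

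For some transcripts the probe gave a signal well above background in only 1 of the groups compared. For 6 called genes the signal was well above background throughout the knockout group (5 arrays) and on 0 arrays of the Cre GFP group. Gbp2b, an interferon-induced GTPase, had levels of -2.97, -3.38, -1.74, -1.90 and -1.33 on the knockout arrays and between -8.14 and -7.33 on the Cre GFP arrays. It was at least 13.0-fold higher (adjusted p = 0.000285), and its second probe gave a change of 5.03 ± 0.61. In the active CRHR1 group, labelled C57Bl/6, the Gbp2b probe was above background on 3 of 5 arrays. The source of that signal was not tested.

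The other genes of that kind were lower in level. The bound was at least 2.46-fold higher for Cxcl1, which draws neutrophils into tissue, at least 2.43-fold for the olfactomedin gene Olfm5, at least 2.32-fold for Cdc25c, a phosphatase that starts mitosis, and at least 2.09-fold for Clec4b1, a C-type lectin of dendritic cells. A probe without a gene name, A_55_P1963134 on chromosome 3, was at least 2.85-fold higher and was above background on 0 of the 5 active CRHR1 arrays. The call of Olfm5 was lost in 13 of 15 single omissions (adjusted p up to 0.109), with slide as a block (0.0795) and with median centring (0.0606).

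In the other direction, 5 called genes were above background on all 5 Cre GFP arrays and on 0 knockout arrays. The probe A_55_P2137023, to which the files give no gene, had levels of -6.39, -5.51, -6.74, -7.42 and -6.14 on the knockout arrays and -1.42, -0.28, -1.28, -1.47 and 0.00 on the Cre GFP arrays. It was at least 28.7-fold lower in the knockout (adjusted p = 4.90e-06), and its mean level in the active CRHR1 group was -1.02. The predicted gene Gm3219 was at least 6.64-fold lower, and Acsm5, a medium-chain acyl-CoA synthetase, at least 1.51-fold lower. Acsm5 lost its call without Cre GFP array 1 or 4 (adjusted p = 0.0508 and 0.0573) and with slide as a block (0.104).

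Among the other large rises, several were seen on every knockout array. Tmprss11d, a transmembrane serine protease of airway epithelium, rose by 2.76 ± 0.46 (above background on 2 Cre GFP arrays), Cnmd, which encodes the cartilage glycoprotein chondromodulin, by 2.48 ± 0.47, and Card9, which relays signals of receptors for fungi, by 2.42 ± 0.36. Madcam1, an adhesion molecule of venules to which lymphocytes bind, had levels between -2.88 and -1.80 on the knockout arrays and between -4.32 and -4.16 on the Cre GFP arrays, a rise by 1.80 ± 0.18 (adjusted p = 0.000201). The narrow range of the Cre GFP arrays left a clear gap between the groups. Mttp, which loads lipid onto lipoproteins, rose by 1.63 ± 0.18, the urea transporter gene Slc14a2 by 1.65 ± 0.29, the apelin receptor gene Aplnr by 1.56 ± 0.31 and Pdcd1, the inhibitory T cell receptor PD-1, by 1.59 ± 0.25. Cnmd lost its call with slide as a block (adjusted p = 0.0702).

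Some large falls were seen on every knockout array. Pttg1 encodes securin, which holds sister chromatids together until anaphase. It had levels of -1.11, -1.24, -0.83, -0.68 and -0.75 on the knockout arrays and 2.52, 2.72, 2.49, 2.18 and 2.60 on the Cre GFP arrays. The groups lay far apart, the change was -3.42 ± 0.22 (adjusted p = 3.36e-06) and the second probe gave -3.07 ± 0.44. Dlk1, an imprinted gene for a membrane protein related to Notch ligands, had levels of -2.84, -3.45, -3.22, -3.07 and -2.91 on the knockout arrays and -0.77, -1.18, -0.61, -0.61 and -0.48 on the Cre GFP arrays. Its change was -2.37 ± 0.16 (adjusted p = 4.90e-06) and the second probe gave -2.11 ± 0.24. Both genes were lower on every knockout array than on any of the 10 other arrays.

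Etnppl, an enzyme of astrocytes that breaks down phosphoethanolamine, fell by 1.95 ± 0.23, with knockout arrays between 0.39 and 1.08 and Cre GFP arrays between 2.26 and 3.21. Zfp296, a zinc finger gene of early embryos, fell by 2.57 ± 0.22 (above background on 1 knockout array), the vomeronasal receptor gene Vmn2r29 by 1.96 ± 0.18, the homeobox gene Duxbl2 by 1.61 ± 0.19 and Nt5e, the ectoenzyme CD73 that makes adenosine, by 1.28 ± 0.23. Vmn2r29 and Duxbl2 belong to families of near-identical copies, and the source of their signal is uncertain. A second Duxbl2 probe gave -0.33 ± 0.45. Mc3r, a melanocortin receptor gene, fell by 1.57 ± 0.37 and lost its call in 8 of 15 single omissions (adjusted p up to 0.0713), with slide as a block (0.158) and with median centring (0.0541).

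For some of the largest changes, single arrays did not stand with their own group. These genes were singled out for that pattern after their values were seen. Krt12, a keratin of the cornea, had levels of 0.28, 0.39, -0.07 and -0.98 on Cre GFP arrays 1 to 4 but -8.21 on array 5, at the level of the knockout arrays (-8.16 to -7.92). The active CRHR1 arrays lay between -1.13 and 0.07. Krt12 was above background on 0 knockout and 4 Cre GFP arrays. Against the mean of the 5 Cre GFP arrays, array 5 included, its level in the knockout was at least 16.4-fold lower (adjusted p = 0.0153). Array 5 itself did not lie above the knockout arrays, so that this fold does not hold for it. The call was lost in a fit of the 10 arrays alone (adjusted p = 0.0648). Eps8l1, a relative of the actin regulator Eps8, lay between -5.40 and -4.60 on the knockout arrays and between -1.27 and -0.22 on 4 Cre GFP arrays, with array 4 at -4.57. Its change was -3.44 ± 0.64 (adjusted p = 0.0119). Stac2, an adaptor that binds calcium channels, lay between 0.99 and 1.45 on the knockout arrays and between 2.69 and 3.44 on 4 Cre GFP arrays, with array 5 at 1.36. Its change was -1.60 ± 0.33 (adjusted p = 0.0189), which was lost without Cre GFP array 3 (-1.48, adjusted p = 0.0525).

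Such arrays were found in the knockout group too. Hist2h2bb, a histone H2B gene, had a level of -4.39 on knockout array 1, within the range of the Cre GFP arrays (-4.56 to -3.98), and of 0.29, 0.35, -0.24 and -0.68 on knockout arrays 2 to 5. Its change was 3.33 ± 0.68 (adjusted p = 0.0186), which was lost without knockout array 4 (3.15, adjusted p = 0.05001) and with slide as a block (0.0633). BC030500 lay between -6.79 and -5.23 on 4 knockout arrays but at -1.63 on array 3, above the Cre GFP arrays (-2.43 to -2.13). It was above background on 3 knockout arrays. Its change of -2.72 ± 0.67 lost its call in 14 of 15 single omissions (adjusted p up to 0.0980) and with slide as a block (0.127). Fam227b lay between -3.91 and -3.82 on Cre GFP arrays 2 to 5 and at -1.56 on array 1, with the knockout arrays between -0.85 and -0.07. Its change was 2.86 ± 0.38 (adjusted p = 0.00148) and its second probe gave 2.97 ± 0.42.

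Other genes split a group into 2 parts. Zfp42, a zinc finger gene of stem cells also called Rex1, lay between -3.14 and -2.46 on the knockout arrays. It lay near -4.4 on Cre GFP arrays 1 and 3 (-4.47 and -4.36) and near the floor on arrays 2, 4 and 5 (-7.90, -8.07 and -8.05). The active CRHR1 arrays split the same way, with 3 between -4.71 and -4.28 and 2 at -8.26 and -8.10. The transcript 9630041A04Rik had 1 Cre GFP array (array 3, -3.82) close to the knockout arrays (-3.38 to -2.14) and 4 between -8.07 and -6.70. Zfp42 was above background on 2 and 9630041A04Rik on 1 of the Cre GFP arrays, so that the sizes of their rises rest on arrays without a measured level. The rises of Zfp42 (3.77 ± 0.95) and 9630041A04Rik (3.95 ± 0.97) each lost their call in 9 of 15 single omissions (adjusted p up to 0.111) and with slide as a block (0.200 and 0.173), and Zfp42 with median centring (0.0570).

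Tti2, whose product stabilises large kinases of the DNA damage response, was low on all knockout arrays (-0.62 to -0.28). Its levels were 1.31 and 1.54 on Cre GFP arrays 1 and 3 and 2.33, 2.29 and 2.38 on arrays 2, 4 and 5, the same division of the Cre GFP arrays as for Zfp42. The change of Tti2 was -2.46 ± 0.23 (adjusted p = 8.72e-05), and its other probes gave -0.95 ± 0.19 and -3.14 ± 0.24. Snap25, a SNARE protein of synaptic vesicle release, had levels of 4.97 on knockout arrays 1 and 3 and of 3.96, 4.13 and 3.98 on knockout arrays 2, 4 and 5, against 5.17 to 5.58 on the Cre GFP arrays. Its change was -0.98 ± 0.19 (adjusted p = 0.0151). All knockout arrays lay below the Cre GFP arrays, by very different distances.

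**Figure D4:**
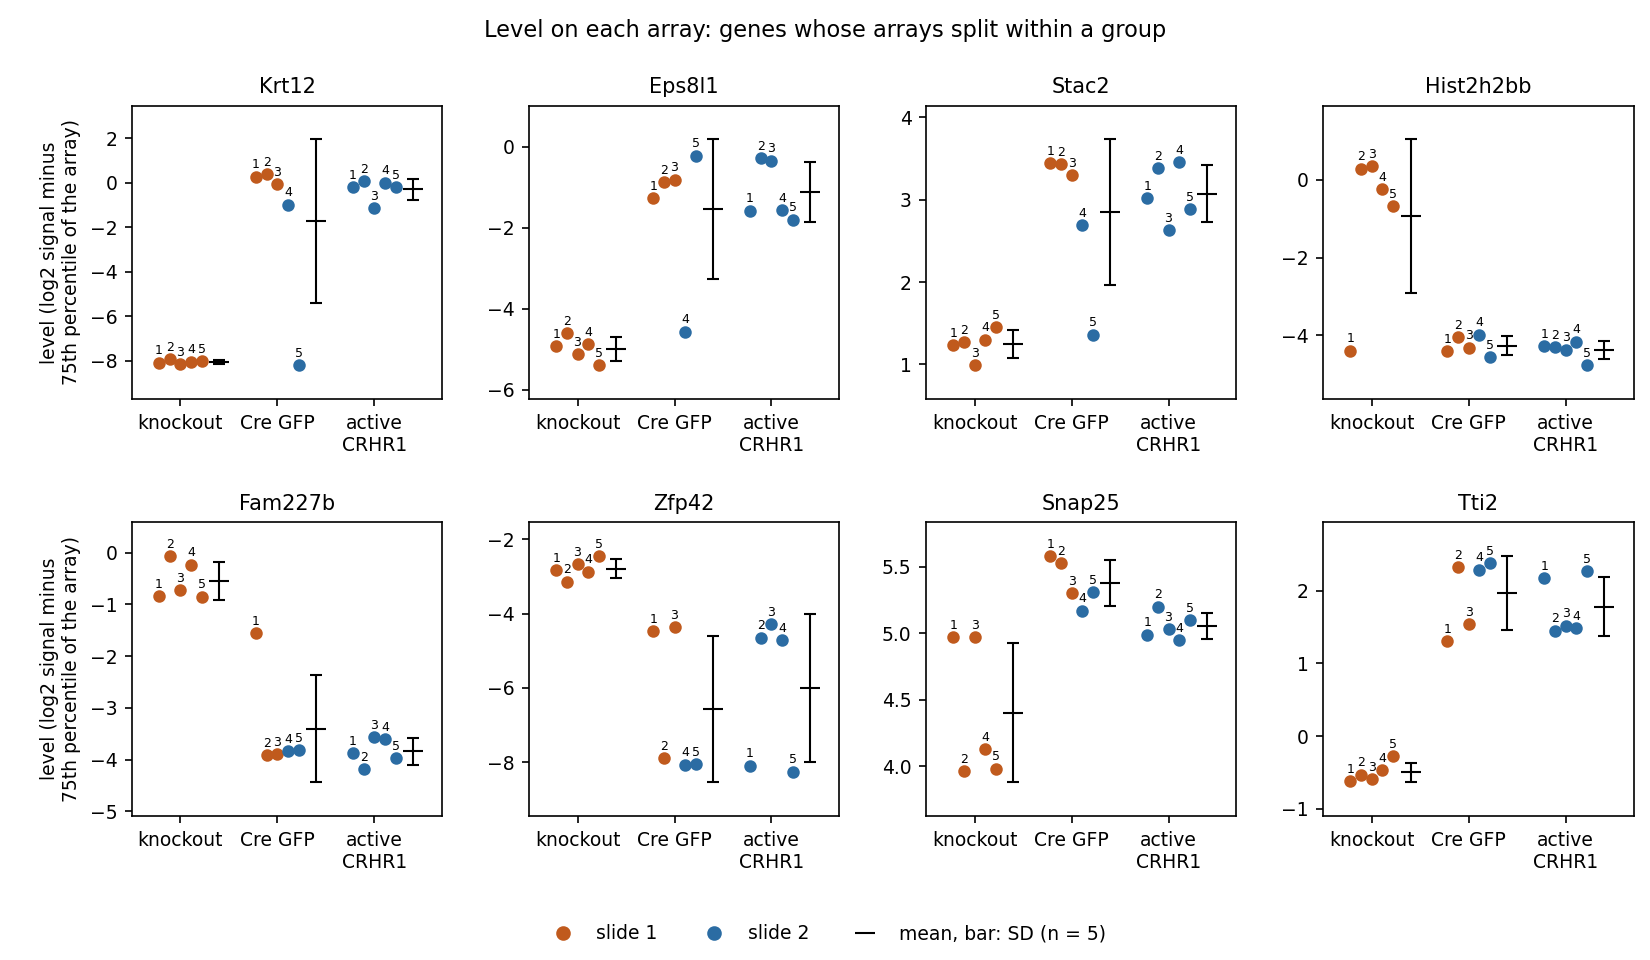
Level (log2 signal minus the 75th percentile of the array) on each of the 15 arrays for 8 genes, numbered by replicate and coloured by slide; black marks are the group mean and bars the SD over 5 arrays. Single arrays sit at the level of the other group (Krt12 on Cre GFP array 5, Eps8l1 on Cre GFP array 4, Hist2h2bb on knockout array 1). Snap25 splits the knockout arrays into 2 parts, Tti2 the Cre GFP arrays, and Zfp42 both the Cre GFP and the active CRHR1 arrays.

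The called genes with the smallest p included moderate rises with little spread. Zbtb26, a zinc finger gene, rose by 1.10 ± 0.08 (adjusted p = 1.27e-05), with knockout arrays between -2.29 and -2.08 and Cre GFP arrays between -3.51 and -3.08. Chil1, a secreted chitinase-like protein of astrocytes and myeloid cells, rose by 1.00 ± 0.09, with knockout arrays between 2.17 and 2.50 and Cre GFP arrays between 1.27 and 1.47. A930005H10Rik, a long non-coding RNA, rose by 1.03 ± 0.08. All 3 were separated by more than the range of either group.

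Gkn3, a gastrokine found in the endothelium of arteries, rose by 1.13 ± 0.11, Arl5a, a small GTPase of the Golgi, by 0.92 ± 0.09, and Aldh1a7, an aldehyde dehydrogenase, by 1.13 ± 0.11. Casq2, a calcium store protein of muscle, rose by 0.76 ± 0.08, and Fgr, a Src family kinase of myeloid cells, by 1.23 ± 0.13. The adjusted p of these 5 genes lay between 0.000113 and 0.000203. All 8 rises stayed called when slide was a block, with median centring and in every single omission.

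Some called genes lay next to each other. The stretches named here were chosen after their values were seen, and no test of clustering was made. On chromosome 2 (mm9, 37283126 to 37654499) 6 of 7 tested genes from Zbtb6 to Crb2 were called, all higher. They were the zinc finger genes Zbtb6 (0.96 ± 0.13) and Zbtb26, the orphan receptor gene Gpr21 (1.01 ± 0.13), Rabgap1, which switches off Rab GTPases (1.04 ± 0.12), the RNA-binding protein gene Strbp (0.36 ± 0.06) and the polarity gene Crb2 (0.62 ± 0.12). On chromosome 8 (32207432 to 32928559) 4 of 7 were called, all lower: the phosphatase gene Dusp26 (-1.08 ± 0.15), Tti2, the fucosyltransferase gene Fut10 (-1.002 ± 0.18) and Nrg1, a growth factor that acts on ErbB receptors (-0.47 ± 0.08). All called neighbours on each of these stretches had changed in 1 direction.

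On chromosome 7 (19639783 to 20166463) 8 of 30 genes were called, 3 higher and 5 lower. They included the RNA processing genes Sympk (-0.84 ± 0.13) and Clasrp (-0.55 ± 0.11), the DNA repair helicase gene Ercc2 (-0.69 ± 0.08) and Zfp296. On chromosome 3 (135005416 to 137753927) 11 of 30 were called, 2 higher (Mttp and the B cell scaffold gene Bank1, 0.79 ± 0.14) and 9 lower, among them Slc9b2, a sodium-proton exchanger (-1.08 ± 0.15). On chromosome 14, 3 of 6 genes of a cluster of ribonuclease genes were called, among them Ear1 (1.46 ± 0.34) and Ear2 (1.34 ± 0.26) of eosinophils, and the related gene Rnase2a rose by 1.49 ± 0.21. These genes are near-identical, and so are those of another stretch of chromosome 14 in which Plac9a fell by 1.26 ± 0.18, so that their signals may be shared. With slide as a block Crb2 (adjusted p = 0.0632), Fut10 (0.0590) and Ear1 (0.127) lost their calls, with median centring Strbp (0.251), Crb2 (0.0619) and Ear1 (0.0543). Ear1 was also lost in 7 of 15 single omissions (adjusted p up to 0.0795) and Clasrp without Cre GFP array 4 (0.05004).

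Over the chromosomes, the called share was 0 of 10 genes on the Y and ran on the others from 1.99% of 1007 genes on the X to 5.04% of 1964 genes on chromosome 7 and of 1310 genes on chromosome 9. The other probes of a called gene mostly moved with it: among 203 called genes with several kept probes, all probes had the same sign in 176 (86.7%), against 65.5% of all genes with several probes.

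The gene lists and their members were chosen with earlier results of these data known. The called share of a list, here and below, is thus a description and no independent support. Of all 27334 genes tested, 5423 had an unadjusted limma p under 0.05, and counts at that threshold are to be read against this share. Genes of the vessel wall formed the list with the most rises. Pericytes and smooth muscle cells wrap capillaries and arterioles and set their width. Of 18 of their marker genes 9 rose and 0 fell, and 15 had higher means, against 1.96% of all genes that rose and 50.7% with a higher mean. The median change was 0.48, against 0.0037 over all genes. The summed level of the 18 genes (signal divided by the 75th percentile) lay between 68.3 and 100.6 on the knockout arrays and between 51.3 and 58.7 on the Cre GFP arrays, without overlap.

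Rgs5, an inhibitor of G protein signalling and a standard pericyte marker, had levels of 1.27, 1.24, 1.58, 0.67 and 1.25 on the knockout arrays and 0.38, 0.30, -0.14, 0.22 and 0.09 on the Cre GFP arrays. It rose by 1.03 ± 0.15 (adjusted p = 0.00295). Notch3, the Notch receptor of mural cells, lay between 0.47 and 0.67 on the knockout and between -0.01 and 0.16 on the Cre GFP arrays, a rise by 0.52 ± 0.06 (adjusted p = 0.000285). The active CRHR1 group had a mean of 0.25 for Rgs5, as low as the Cre GFP group, and of 0.45 for Notch3, close to the knockout group.

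The subunits of the pericyte potassium channel, Kcnj8 and Abcc9, rose by 0.96 ± 0.13 and 0.95 ± 0.11. Ndufa4l2, a mitochondrial protein, rose by 0.52 ± 0.08, the matrix protein gene Vtn by 0.48 ± 0.09, Atp13a5, a transporter of brain pericytes, by 0.52 ± 0.09, and the receptor gene Pdgfrb by 0.31 ± 0.07. The contractile genes of smooth muscle were not called: Acta2, Tagln, Myh11 and Cnn1 had changes of 0.29, 0.47, 0.23 and 0.45 (adjusted p from 0.0745 to 0.676), and the pericyte genes Anpep and Cspg4 -0.11 and -0.01. These markers of the same cells did not pass the test.

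With slide as a block 7 of the 9 calls remained and the list's median was 0.48; Pdgfrb (adjusted p = 0.0504) and Higd1b (0.0972) were lost, as they were in 5 and 3 of 15 single omissions (up to 0.0807). With median centring 4 remained (median 0.42), and without knockout arrays 2 and 5 the list had 7 (median 0.50). With median centring Vtn, Ndufa4l2 and Atp13a5 also lost their calls (adjusted p from 0.0503 to 0.178). Endothelial cells, which line the same vessels, had 0 of 19 genes called by limma, 4 higher at an unadjusted p under 0.05, and a median of 0.09, with changes between -0.26 and 0.28. The summed level of endothelial genes lay between 112 and 131 on the knockout and between 101 and 135 on the Cre GFP arrays.

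Fibroblast genes of the meninges and vessels rose in part. Of 13 genes 2 rose and 0 fell (15.4% against 3.39% of all genes called and 1.96% that rose, median 0.14). The 2 were Lum, a proteoglycan of collagen fibres (0.72 ± 0.11), and Col3a1, the chain of type III collagen (0.77 ± 0.17). Lum lay between -0.56 and -0.02 on the knockout arrays and between -1.10 and -0.95 on the Cre GFP arrays. Col1a1 and Col1a2, with changes of 0.85 and 0.68, were not called (adjusted p = 0.244 and 0.107). Col3a1 was lost in 6 of 15 single omissions (adjusted p up to 0.0722) and with median centring (0.102). How far the meninges taken with a bulb differed between mice was not tested. Of 9 choroid plexus and ependyma genes, whose cells are not part of the bulb, 2 rose (22.2% against 3.39% of all genes called and 1.96% that rose). They were Mia, a small secreted protein (0.63 ± 0.12), and the chemoattractant gene Rarres2 (0.58 ± 0.12). Median centring ended both calls (adjusted p = 0.130 and 0.120), and slide as a block that of Rarres2 (0.0706), as did leaving out Cre GFP array 3 or 4 (up to 0.0561).

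Olfactory ensheathing glia wrap the axons of sensory neurons as these enter the bulb. Of 12 of their genes 4 rose and 0 fell (33.3%, against 3.39% of all genes called and 1.96% that rose). Higher means were found for 10 of the 12, against 50.7% of all genes. The median change was 0.22, or 0.27 with slide as a block. Without knockout arrays 2 and 5 the list had 1 called gene. Ngfr, the low-affinity neurotrophin receptor, had levels of 0.98, 0.78, 0.65, 1.10 and 0.93 on the knockout arrays and 0.03, 0.29, 0.03, 0.15 and 0.18 on the Cre GFP arrays. The groups did not overlap, and the gene rose by 0.75 ± 0.11 (adjusted p = 0.00339). Npy, a peptide that these glia make besides many neurons, rose by 0.53 ± 0.10, with knockout arrays between 5.22 and 5.66 and Cre GFP arrays between 4.75 and 5.07. Prss56, a serine protease, rose by 0.71 ± 0.18 and Sox10, a transcription factor shared with oligodendrocytes, by 0.31 ± 0.08.

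Other markers of ensheathing glia did not pass: Fabp7, a fatty acid binding protein, differed by 0.10 (adjusted p = 0.634), Frzb by 0.23 (0.148) and Cdh19 by -0.42 (0.159). The summed level lay between 159 and 193 on the knockout and between 126 and 167 on the Cre GFP arrays, with some overlap. Prss56 and Sox10 lost their calls under the slide block (adjusted p = 0.0607 for both) and in 10 and 13 of 15 single omissions (up to 0.115), and with median centring Ngfr alone remained called (adjusted p = 0.0422). The axons that these glia wrap had 0 of 11 genes called by limma, 1 lower at an unadjusted p under 0.05, and a median change of 0.0058.

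**Figure D5:**
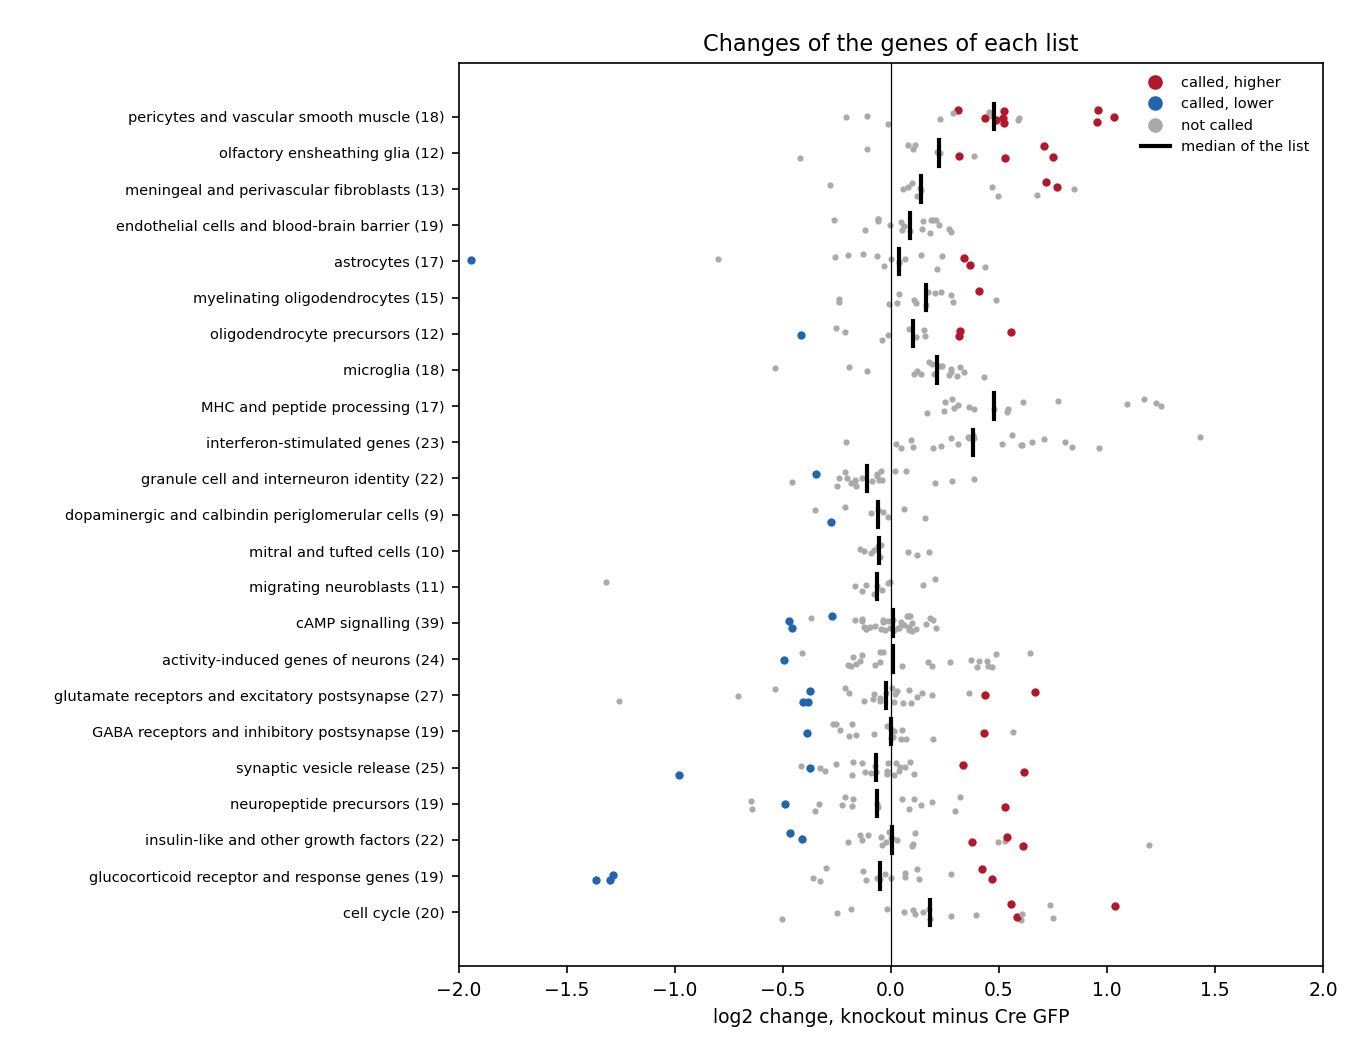
Change (log2, knockout minus Cre GFP) of each tested gene of 23 lists, with the number of genes tested in brackets; red and blue points are called genes, grey points are not, and black bars are the list medians. The pericyte and smooth muscle list has 9 red points and a median of 0.48. The MHC and interferon lists have medians of 0.48 and 0.38 with 0 called genes. Left out is 1 gene outside the axis, Pttg1 at -3.42. Among the called cell cycle genes, Bub1 had no measured level in the groups compared.

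Astrocyte genes changed in opposite directions. Of 17 genes 2 rose and 1 fell (17.6% against 3.39% of all genes, median 0.04). The glutamate transporter gene Slc1a3 rose by 0.37 ± 0.08 and the water channel gene Aqp4 by 0.34 ± 0.08, while Etnppl had the fall given above. A second Aqp4 probe gave 0.41 ± 0.07. Of 12 genes of oligodendrocyte precursors 3 rose and 1 fell (33.3% against 3.39% of all genes, median 0.10): C1ql1, Sox10 and the growth factor gene Bmp4 (0.32 ± 0.08), and the sialidase gene Neu4 (-0.42 ± 0.11). Of 15 myelin and oligodendrocyte genes 1 rose (6.67% against 3.39% of all genes, median 0.16), Mbp by 0.41 ± 0.10. Its other probes gave -0.20 ± 0.13 and -0.26 ± 0.08, so that no direction can be given for Mbp. With slide as a block and with median centring Slc1a3, Aqp4, Bmp4, Mbp and Neu4 lost their calls (adjusted p from 0.0521 to 0.361), and in single omissions they were lost in 4 to 12 of 15 (up to 0.117).

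Immune lists were higher on average but very uneven between mice. Of 17 genes of MHC molecules and peptide processing, 0 were called by limma, 4 were higher at an unadjusted p under 0.05, and 17 had higher means (median 0.48, or 0.23 with slide as a block). For this list and the next ones, 3.39% of all genes were called and 50.7% had a higher mean. An unadjusted p under 0.05 was found for 5423 of 27334 genes, in either direction. Cd74, the chain that guides MHC class II molecules, had levels of 2.87, 2.75, 3.96, 2.82 and 2.81 on the knockout arrays and 2.06, 3.01, 1.14, 1.29 and 1.46 on the Cre GFP arrays. Cre GFP array 2 lay within the knockout range, knockout array 3 stood above all others, and the difference of 1.25 ± 0.48 was not called (adjusted p = 0.167). The class II gene H2-Eb1 gave 1.23 ± 0.48.

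Interferon-stimulated genes had 0 of 23 called by limma and 2 at an unadjusted p under 0.05, with 22 higher means (median 0.38, or 0.17 with slide as a block). Ifi44 had the largest change, 1.43 ± 0.47 (adjusted p = 0.114), with knockout arrays between -3.36 and -1.40 and Cre GFP arrays between -4.48 and -2.61. The mean level of these genes was highest on knockout array 3 (1.04) and lowest on Cre GFP array 5 (-0.85), and knockout arrays 1, 2 and 4 (-0.28, -0.77 and 0.03) lay within the Cre GFP range (-0.85 to 0.32). Of 18 interferon-induced GTPases Gbp2b alone was called. Microglia had 0 of 18 genes called (2 higher and 1 lower at an unadjusted p under 0.05; median 0.21), and T cells, B cells and blood cells 0 of 11 (4 higher at an unadjusted p under 0.05; median 0.42). Without knockout arrays 2 and 5 that last list had 3 called genes and a median of 0.22. All these lists were highest on the active CRHR1 arrays in summed level, except the blood list. The summed level of MHC genes was 104 to 174 in the knockout, 73.4 to 152 in the Cre GFP and 176 to 514 in the active CRHR1 group.

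The lists of bulb neuron genes held 0 or 1 called genes each. With 1 called gene, the share was 4.55% for granule cells and interneurons and 11.1% for periglomerular cells, against 3.39% of all genes called. Of 22 genes of granule cell and interneuron identity, the cells with CRHR1, 1 fell and 0 rose, and 5 had higher means (median -0.11). At an unadjusted p under 0.05 in limma, 2 of them were higher and 5 lower. Etv1, a transcription factor, fell by 0.35 ± 0.07, with knockout arrays between 5.01 and 5.17 and Cre GFP arrays between 5.25 and 5.65. Of 9 periglomerular genes 1 fell, the channel-interacting protein gene Kcnip1 (-0.28 ± 0.07, while a second probe gave 0.13 ± 0.21). At an unadjusted p under 0.05, 0 genes of this list were higher and 2 lower. Mitral and tufted cells had 0 of 10 genes called by limma and 0 at an unadjusted p under 0.05. Migrating neuroblasts had 0 of 11 called, with 1 higher and 2 lower at an unadjusted p under 0.05.

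Among the neuroblast genes, Prokr2, the receptor that guides neuroblasts into the bulb, split the knockout arrays: -0.75, -0.95 and -0.88 on arrays 1, 3 and 5 and -2.21 and -2.25 on arrays 2 and 4, against -1.18 to 0.45 on the Cre GFP arrays. The difference of -1.32 ± 0.35 was not called (adjusted p = 0.0543). Of 8 genes of anterior olfactory and cortical neurons, which a dissection of the bulb can carry along, 1 was called (12.5% against 3.39% of all genes). This gene, Nrn1, fell by 0.30 ± 0.07. Etv1, Kcnip1 and Nrn1 lost their calls with slide as a block (adjusted p from 0.0878 to 0.157), with median centring (up to 0.168) and in 4, 9 and 9 of 15 single omissions.

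CRHR1 acts through the G protein that stimulates adenylyl cyclase, and genes of the cyclic AMP machinery were measured as a list. The list held 39 genes, for G proteins and their regulator Rgs9, cyclases, kinase A subunits, exchange factors, phosphodiesterases and arrestins. Of these 3 fell and 0 rose (median 0.01), 7.69% against 3.39% of all genes called and 1.43% that fell. Without knockout arrays 2 and 5 the list had 0 called genes. Pde10a, a phosphodiesterase that degrades cyclic AMP, had levels of 1.29, 1.23, 1.53, 1.27 and 1.16 on the knockout arrays and 1.60, 1.76, 1.79, 1.86 and 1.83 on the Cre GFP arrays, a fall by 0.47 ± 0.09 (adjusted p = 0.0157). A second probe gave -0.55 ± 0.10. The active CRHR1 arrays had a mean of 1.14, as low as the knockout arrays. Rgs9, which speeds the shut-off of G proteins, fell by 0.46 ± 0.10, while its 3 other probes gave changes between -0.48 and -0.17, and Rapgef3, an exchange factor that cyclic AMP activates, fell by 0.27 ± 0.06.

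Of 24 activity-induced genes 1 fell and 0 rose (4.17% against 3.39% of all genes, median 0.0086): Vgf, a secreted neuropeptide precursor, by 0.49 ± 0.13 (adjusted p = 0.0488). The immediate early genes Fos, Arc and Egr1 had differences of 0.41, 0.49 and 0.37 (adjusted p from 0.384 to 0.617). Pde10a, Rapgef3 and Vgf lost their calls under the slide block (adjusted p from 0.0777 to 0.195) and with median centring (up to 0.142), and in single omissions Rgs9, Rapgef3 and Vgf were lost in 5, 8 and 13 of 15 (up to 0.120).

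The response element of the cyclic AMP pathway, TGACGTCA, reads the same on both strands. It was searched in the 250 bases before the start of each gene (RefSeq, GRCm38.p6), as an exact match. It was found in 1.77% of 27025 genes of the table and in 2.84% of 12975 tested genes. Of the called genes with a promoter in the table, 3 of 302 higher genes (0.993%) and 8 of 235 lower genes (3.40%) held it. All 11 lost their call with slide as a block (adjusted p from 0.0646 to 0.174). Whether these shares differ was not tested, and a match is not a site in use. Among the 8 were Scg2, whose product secretogranin II belongs to the cargo of neuropeptide vesicles, and Gpr6, a receptor that raises cyclic AMP without a known ligand being needed. Both were picked for display after their values were seen, and the gene starts after the last base shown. Capitals mark the element. The windows lie at chr1:79440027-79440276 for Scg2 and chr10:41072291-41072540 for Gpr6, both genes on the minus strand.
Scg2: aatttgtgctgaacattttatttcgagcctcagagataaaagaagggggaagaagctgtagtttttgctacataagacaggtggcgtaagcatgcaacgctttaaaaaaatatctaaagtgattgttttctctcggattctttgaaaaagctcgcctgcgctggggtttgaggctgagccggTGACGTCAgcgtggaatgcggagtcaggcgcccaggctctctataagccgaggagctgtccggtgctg
Gpr6: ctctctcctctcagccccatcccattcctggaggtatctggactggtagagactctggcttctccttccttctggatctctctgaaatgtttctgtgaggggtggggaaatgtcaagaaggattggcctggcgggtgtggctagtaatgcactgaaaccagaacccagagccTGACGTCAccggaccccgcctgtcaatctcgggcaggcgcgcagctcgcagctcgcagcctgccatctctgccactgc

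Scg2 had levels of 5.58, 5.63, 5.49, 5.53 and 6.05 on the knockout arrays and 5.88, 6.05, 6.16, 6.02 and 6.25 on the Cre GFP arrays. Knockout array 5 lay among the Cre GFP arrays, and the change was -0.42 ± 0.10 (adjusted p = 0.0363). Gpr6 fell by 0.41 ± 0.10 (adjusted p = 0.0429) and the groups did not overlap. Both lost their calls under the slide block (0.140 and 0.100) and in 10 and 11 of 15 single omissions (up to 0.0921).

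Synaptic genes changed in both directions. Of 27 genes of glutamate receptors and the excitatory postsynapse 2 rose and 3 fell (18.5% against 3.39% of all genes, median -0.02). The kainate receptor gene Grik1 rose by 0.67 ± 0.10, although a second probe gave -0.04 ± 0.09, and the scaffold gene Homer3 by 0.44 ± 0.08, although a second probe gave 0.00 (-0.0015 ± 0.22). The NMDA receptor gene Grin2c fell by 0.37 ± 0.08, the metabotropic receptor gene Grm2 by 0.41 ± 0.08 and the scaffold gene Dlgap2 by 0.38 ± 0.07 (second probe 0.01 ± 0.31). The probes of Grik1, Homer3 and Dlgap2 thus differed from each other.

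Of 19 genes of GABA receptors and the inhibitory postsynapse (10.5% called against 3.39% of all genes) 1 rose, the subunit gene Gabrg1 (0.43 ± 0.08), and 1 fell, Gabra5 (-0.39 ± 0.08). Of 25 genes of vesicle release 2 rose and 2 fell (16.0% against 3.39% of all genes). Unc13c, which primes vesicles, had levels between -0.92 and -0.61 on the knockout and between -1.44 and -1.26 on the Cre GFP arrays, a rise by 0.62 ± 0.10, and the SNARE gene Stx1a rose by 0.33 ± 0.08. Snap25 was the largest fall of the list, and Rab3b, a GTPase of vesicles, fell by 0.37 ± 0.09. Slide as a block ended the calls of Grin2c, Grm2, Dlgap2, Gabrg1, Gabra5, Stx1a and Rab3b (adjusted p from 0.0518 to 0.116), and median centring those of all named here except Grik1 and Snap25 (0.0616 to 0.287). Stx1a and Rab3b were lost in 8 and 9 of 15 single omissions (up to 0.108), and Gabra5 without knockout array 2 or 4 (0.0512 and 0.0541).

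Growth factor genes changed in both directions. Of 22 genes 3 rose and 2 fell (22.7% against 3.39% of all genes, median 0.0031). Igfbp5, which binds insulin-like growth factors, had levels of 3.95, 4.01, 3.89, 3.98 and 3.87 on the knockout arrays and 3.20, 3.25, 3.37, 3.44 and 3.39 on the Cre GFP arrays. It rose by 0.61 ± 0.06 (adjusted p = 0.000248), with the active CRHR1 group at a mean of 3.23. Igfbp2 rose by 0.37 ± 0.08 (second probe 0.39 ± 0.07), and Cntf, a cytokine that supports neurons and is made by glia, by 0.54 ± 0.08 (second probe 0.70 ± 0.08). Igfbp3 fell by 0.41 ± 0.10, and Nrg1 fell as given above. Of 19 neuropeptide precursors (10.5% called against 3.39% of all genes) Npy rose and Adcyap1, which encodes the peptide PACAP, fell by 0.49 ± 0.11, with knockout arrays between 1.32 and 1.69 and Cre GFP arrays between 1.79 and 2.35. Igfbp2, Igfbp3 and Adcyap1 lost their calls under the slide block (adjusted p from 0.0853 to 0.190) and in 4, 12 and 5 of 15 single omissions (up to 0.108). With median centring these 3, Cntf and Npy were not called (0.0792 to 0.209).

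CRH lies upstream of the adrenal steroids, whose response genes were measured as well. Of 19 genes 2 rose and 3 fell (26.3% against 3.39% of all genes, median -0.05). Sult1a1, a sulfotransferase, had levels of -0.05, 0.26, 0.53, 0.47 and 0.56 on the knockout arrays and 1.95, 1.84, 1.26, 1.60 and 1.62 on the Cre GFP arrays, a fall by 1.30 ± 0.15 (adjusted p = 0.000514; second probe -1.34 ± 0.16). Plin4, a coat protein of lipid droplets, fell by 1.37 ± 0.34 and the oxygen-responsive factor gene Hif3a by 1.29 ± 0.29 (second probe -2.004 ± 0.31). Pdk4, a kinase that restrains glucose oxidation, rose by 0.42 ± 0.08 and Hsd11b1, which makes active corticosteroid, by 0.47 ± 0.11. Plin4 lay at -0.90 and -1.68 on Cre GFP arrays 1 and 2 and between -3.11 and -2.48 on arrays 3 to 5, near the knockout arrays (-3.98 to -3.16). Sult1a1 alone kept its call with slide as a block, the others having adjusted p from 0.0557 to 0.131, and Hif3a, Plin4 and Hsd11b1 were lost in 6, 13 and 7 of 15 single omissions (up to 0.0968). With median centring Pdk4 and Hsd11b1 were not called (0.127 and 0.231).

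Of 20 cell cycle genes 3 were called higher and Pttg1 fell (against 3.39% of all genes called, median 0.18). The 3 include Bub1, which had no measured level in the groups compared. The cyclin gene Ccnd2, which drives entry into the cycle, rose by 0.56 ± 0.07, with knockout arrays between 2.66 and 2.77 and Cre GFP arrays between 2.01 and 2.27, and Ccnd1 by 0.58 ± 0.11. Bub1, a kinase of the spindle checkpoint, was called, but both groups had 0 arrays with the gene well above background, and no fold is given. Bub1 passed the filter through the active CRHR1 group alone, so that its call is not a measured rise. Markers of dividing cells had larger differences without a call: Mki67 differed by 0.74 (adjusted p = 0.0902) and Top2a by 0.75 (0.155). Ccnd2 and Ccnd1 stayed called when slide was a block and in all single omissions but not with median centring (adjusted p = 0.0619 and 0.117).

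Of 26 imprinted genes 1 rose and 2 fell (11.5% against 3.39% of all genes, median -0.06). Besides Dlk1, the zinc finger gene Plagl1 fell by 0.39 ± 0.09, with changes between -0.74 and -0.19 on its 3 other probes, and Cdkn1c, an inhibitor of the cell cycle, rose by 0.33 ± 0.08. Both lost their calls with slide as a block (adjusted p = 0.0553 and 0.144), with median centring (0.0524 and 0.226) and in 3 and 7 of 15 single omissions (up to 0.0756). Of 26 genes known to differ between inbred mouse strains, Gbp2b rose and Pttg1 fell, 7.69% against 3.39% of all genes, and the median was -0.02. The list was not tested as a measure of strain.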

How the data were processed

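Total bulb RNA (100 ng, TRIzol, DNase I) was labelled with Cy3 and hybridised to 1-colour Agilent arrays, per the labels' protocols. The deposited scanner files give an intensity for each spot, background-subtracted and detrended by Feature Extraction 10.7.3.1, per the file headers, together with raw spot and background intensity and flags of 0 or 1. A deposited table holds a ratio, the processed signal over 1 number per array set by the authors, and served as an alternative.

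Control spots were left out, spots of a probe were averaged, and log2(signal) minus the 75th percentile of the array gave 55681 probes. Kept were 33965 probes well above background on at least 4 of 5 arrays of any group. The kept probe of the highest mean level stood for each of 27334 genes, of which 17635 have a symbol, updated through RefSeq for 2058 symbols. limma 3.58.1 (R 4.3.3) was fitted on all 15 arrays with 3 group means and no covariate, and was checked on simulated data. A fold given as "at least" sets the group mean against the lowest signal well above background, or the dim probe's own if higher, on each array of the other group. Alternatives were other scalings, filters, probe rules, blocks and omissions. No test across a list was made.

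Named genes were the CRH family, the 25 largest rises and falls and the 15 of smallest p among called genes with a symbol, genes measured in 1 group only, up to 10 called genes around Crhr1, and up to 6 called members of each list, or 2 of smallest p where none was called. Of the 143 genes so named, 31 are not described. The genes of the adjacent stretches, Atp13a5, Pdgfrb, Gm10844, Scg2, Gpr6 and some list members without a call lie outside this rule, and were picked with their values in view. The members and lists were chosen with earlier results of these data known.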

Additional observations from a re-analysis of the deposited data

Results flagged for a closer look

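Single arrays stood apart from the other 4 of their group for 20 of 264 groups of 5 arrays examined, by Dixon's criterion at a nominal rate of about 5%. The genes examined were chosen from these same data and share the same arrays. The nominal rate is thus not a chance rate for them. The levels in question are log2 signal minus the 75th percentile of the array.

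In the Cre GFP group, array 5 was low for Krt12 (-8.21, the others -0.98 or higher) and Grik1 (-2.23), and array 4 for Eps8l1 (-4.57). Array 3 was low for Olfm5 (-7.98) and Pdgfrb (-0.78), and array 2 for Clec4b1 (-6.46) and Homer3 (-1.36). Array 2 was high for A_55_P1963134 (-6.41) and Rabgap1 (-2.04), and array 1 for Gbp2b (-7.33) and Fam227b (-1.56). The levels of Gbp2b, Olfm5, Clec4b1 and A_55_P1963134 in this group were not well above background.

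In the knockout group, array 1 was low for Hist2h2bb (-4.39, the others -0.68 or higher) and Grik1 (-1.86) and high for Kcnip1 (1.86). Array 5 was high for Scg2 (6.05), Crb2 (-1.82) and Fut10 (-1.55) and low for Rabgap1 (-1.66). Array 3 was high for Cd74 (3.96, the others up to 2.87), and array 4 for Gm10844 (-6.20).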

How the results depend on the processing

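All 927 called genes kept their sign with slide as a block, a fit that shares the arrays of slide 1 with the main fit. The counts moved. Calls (all, higher, lower) were 383, 229 and 154 with slide as a fixed block, 114, 60 and 54 on slide 1 alone, 336, 105 and 231 with arrays centred on their median, 1402, 734 and 668 with quantile normalization, 1340, 914 and 426 with normexp, 453, 152 and 301 in the authors' scaled values, 389, 224 and 165 with no filter on dim probes, 493, 312 and 181 in a fit of the 10 arrays alone, 1781, 940 and 841 with array weights, 201, 105 and 96 at an adjusted p under 0.01, and 149, 73 and 76 with at least 2-fold. Without knockout arrays 2 and 5, chosen after seeing the data, they were 345, 146 and 199. Leaving out 1 array gave 431 to 955, 238 to 576 and 193 to 379, the omission of Cre GFP array 4 giving 431, that of knockout array 4 giving 459, that of Cre GFP array 3 giving 470 and that of knockout array 2 giving 552. The correlation of same-numbered samples ran from -0.1535 to 0.4051 and was over 0.1 for 1 of 5 pairs, so the numbers were not taken to pair the samples, and with the replicate block the counts were 561, 316 and 245. Crhr2, near 0, changed sign with slide as a block and on slide 1 alone (-0.17), with median centring (-0.049) and over single omissions (-0.0739 to 0.142). Mbp gave -0.0147 as the mean of its probes and Gm10844, at the detection limit, 0.0181 with normexp. Of 125 called named genes 78 kept their call with slide as a block, 38 on slide 1 alone, 71 with median centring, 69 without knockout arrays 2 and 5 and 100 with the replicate block, and 31 under all 31 settings. Of 961 list medians under these settings 944 moved by less than the spread between replicates. The causes were not tested. Where a group had 0 arrays above background, the fold is only a bound.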
